A study of Mus musculus with 24 samples.

Results

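White adipocytes differentiated in culture for 5 days were compared with epididymal white adipose tissue (eWAT) of the mouse, gene by gene, in ribosome footprints and in mRNA. The comparison covers the 5035 genes, of 22418 in the deposited table, that had a value above 0 in all 24 libraries of the series. Of the others, 6219 genes had no value, and 11164 had a value in some libraries only and were not used, so a gene silent in any of the 12 groups is outside the comparison. The series profiled brown and white preadipocytes (day 0), the adipocytes made from them (day 5), brown adipose tissue (BAT) and eWAT by ribosome profiling and RNA-seq, with 2 libraries in each group. The 8 libraries used here are 2 of ribosome protected fragments (RPF) and 2 of RNA from white cultures at day 5, and the same from eWAT, and the brown cultures and BAT serve as a second pair of culture and tissue.

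The cultures came from the stromal vascular fraction of inguinal fat, a subcutaneous depot, of young C57BL/6 mice, several animals to a batch. The cells were grown to confluence, induced with insulin, dexamethasone, IBMX and rosiglitazone, held in insulin, and then kept in serum medium. Dexamethasone is a glucocorticoid, IBMX raises cyclic AMP, and rosiglitazone activates PPARG, the transcription factor that directs fat cell formation. The eWAT came from 6 week old male mice of the same strain, with fat pads of 3 mice pooled for a library, and each pool was divided between the assays. Culture against tissue, subcutaneous against visceral origin and donor age therefore change together and cannot be told apart, nor can the sequencing lane of the RPF libraries, which was lane 3 for the cultures and lane 2 for the tissues. The labels do not say whether the culture duplicates were separate cultures, so p-values measure the spread between these libraries, which may be technical.

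A white adipocyte stores triglyceride in a large droplet, makes part of its fatty acids from glucose, releases them in fasting, and secretes adiponectin, adipsin and other proteins into the blood. A fat pad also holds blood vessels, macrophages, fibroblasts and, around epididymal fat, a mesothelial sheet, whereas the culture starts from plastic-adherent stromal cells. RPF are the pieces of mRNA that ribosomes cover, so their number on a coding sequence follows how much of a protein is being made, while RNA-seq gives the amount of mRNA. Both are given as RPKM, reads scaled to the length of the coding sequence and to the mapped reads of the library. Translational efficiency (Eff) is the RPF value divided by the RNA value. A difference is the log2 value in white cultures minus that in eWAT, given with its SE, and a gene was called where the limma test gave an adjusted p under 0.05 over the 5035 genes. In bulk samples, fewer cells of a type and less RNA per cell cannot be told apart. With 2 libraries in each group, groups can lie apart by chance, so a lack of overlap is a description and not a test.

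The RPF libraries of the cultures held 801901 and 388105 mapped reads, and those of eWAT 1153205 and 723940. The RNA libraries were deeper, between 5456730 and 9171710 reads. Low read numbers were most common in the shallow culture RPF library, in which 19.2% of genes had under 10 reads, against 1.2% to 5.0% in the others. The culture RPF duplicates differed by little more than counting noise, with a chi-square of 1.08 per degree of freedom, against 2.31 for the eWAT duplicates, and were counted as 2 samples. Averaged into 1 sample, they gave 1045 higher and 643 lower genes in RPF. The adipocyte identity of both groups was checked on 24 measured marker genes, among them Fabp4, Adipoq and Plin1. Their summed RPF level was 105410 and 102950 RPKM in the cultures, against 158930 and 169550 RPKM in eWAT, and 11361 and 11627 RPKM in the preadipocytes before induction. The sum is weighted to abundant genes such as Fabp4 and, in eWAT, Cfd, and does not stand for each marker.

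In RPF, 1227 of 5035 genes (24.4%) were higher in the cultures and 689 (13.7%) were lower. In RNA, 1564 genes (31.1%) were higher and 1886 (37.5%) were lower. The median difference over all genes was 0.17 in RPF and -0.09 in RNA, and these medians are the level against which the gene groups are read. The median SE of a difference was 0.26 in RPF and 0.12 in RNA, so RNA called smaller differences. Counting only differences of at least 2-fold, 670 genes were higher and 421 lower in RPF, and 498 were higher and 567 lower in RNA. The balance of the calls depended on scaling in both assays. Median-of-ratios scaling moved every RPF difference by -0.166 and gave 918 higher and 875 lower genes in RPF, and 1698 higher and 1699 lower in RNA. With quantile scaling, 903 were higher and 826 lower in RPF, and 1735 were higher and 1576 lower in RNA.

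**Figure D1:**
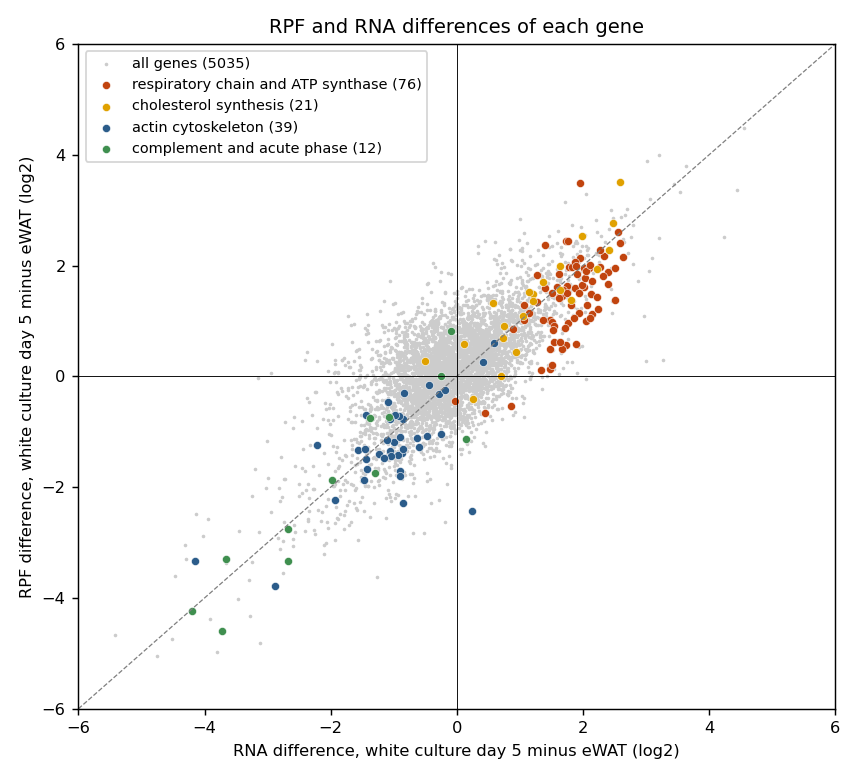
Each point is a gene, placed by its RNA difference (x) and its RPF difference (y), both log2, white culture day 5 minus eWAT. Genes spread along the diagonal, and 859 were higher and 553 lower in both assays.

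RPF and RNA differences went together across genes (Pearson r = 0.72, Spearman rho = 0.62, n = 5035 genes, which are not independent replicates). Of 1539 genes called in both assays, 859 were higher in both and 553 lower in both. Another 103 were higher in RPF and lower in RNA, and 24 were lower in RPF and higher in RNA.

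**Figure D2:**
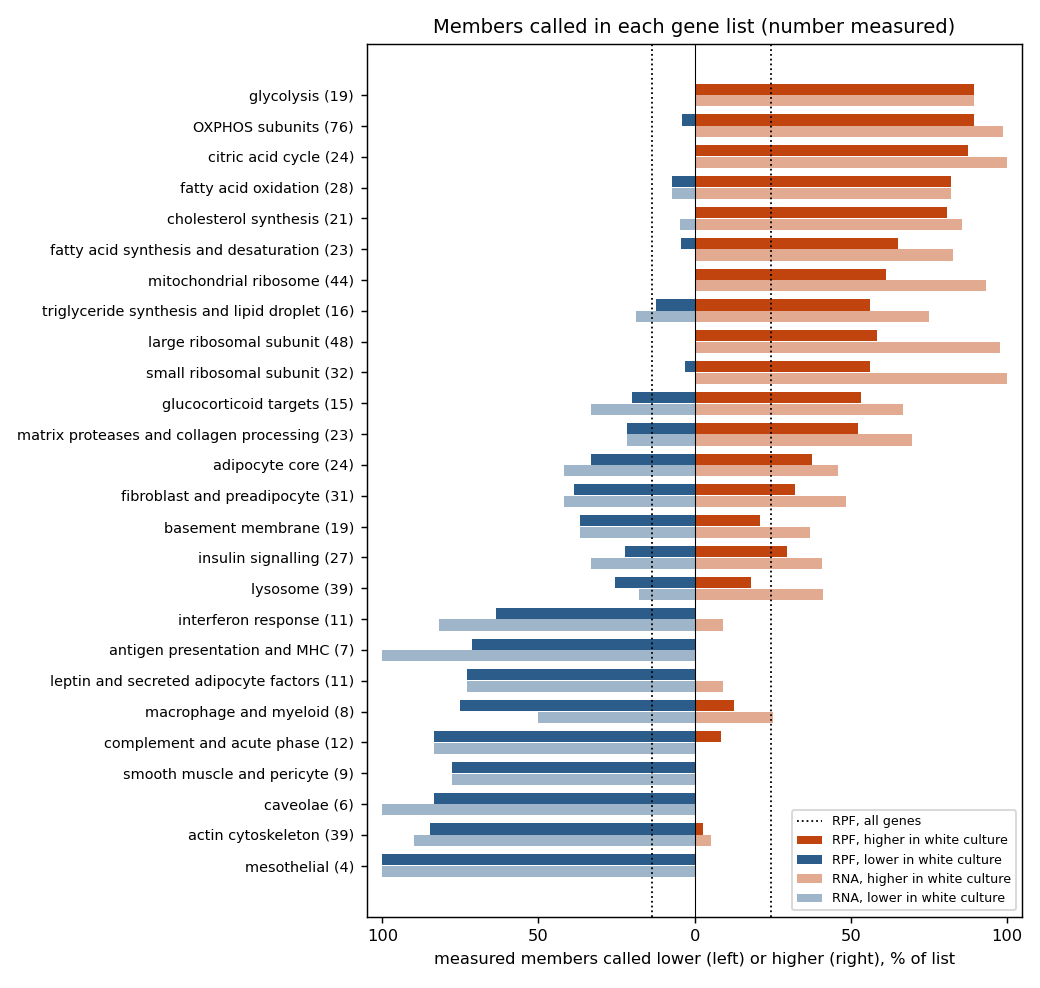
Bars give the percentage of the measured members of each gene list that were called lower (left) or higher (right) in white culture day 5 than in eWAT, in RPF and in RNA. Lists of mitochondrial and metabolic genes lie to the right, and those of complement, other cell types, actin and caveolae to the left.

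The gene with the highest RPF difference was Ero1l, an oxidase that forms disulfide bonds in the endoplasmic reticulum. Its RPF level was 453 and 481 RPKM in the cultures, against 21.8 and 19.8 RPKM in eWAT, a difference of 4.49 ± 0.16 (adjusted p = 1.8e-09). Its RNA stood at 348 and 338 RPKM in the cultures, against 14.99 and 14.2 RPKM in eWAT, so that both assays separated the groups without overlap by nearly the same factor and Eff differed by -0.06 ± 0.22. Tfrc, the transferrin receptor through which cells take up iron, had an RPF level of 286 and 261 RPKM in the cultures, against 17.03 and 19.9 RPKM in eWAT, a difference of 3.89 ± 0.18 (adjusted p = 5.9e-09). Insig1, which holds the sterol sensor of the cell in the endoplasmic reticulum, had an RPF level of 816 and 837 RPKM in the cultures, against 56.8 and 93.98 RPKM in eWAT, a difference of 3.5 ± 0.20 (adjusted p = 2.4e-08). Each of these genes was several-fold higher in both culture libraries than in either tissue library. Other genes at the high end were Igfbp3, a carrier of insulin-like growth factors (3.99 ± 0.23), Thbs2, a matrix glycoprotein (3.80 ± 0.15), Usmg5, a small protein of the ATP synthase (3.48 ± 0.20), Chchd10, a protein of the mitochondrial intermembrane space (3.36 ± 0.21), and Mif, a secreted cytokine (3.33 ± 0.15). Gpnmb, a glycoprotein of macrophages and lysosomes (3.47 ± 0.22), Fads2, a fatty acid desaturase (3.20 ± 0.27), Ms4a4d (3.29 ± 0.27) and Gm9763 (3.14 ± 0.19) completed the 12 highest.

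At the low end stood Thbd, the thrombomodulin of vessel walls and mesothelium, with an RPF level of 15.8 and 14.9 RPKM in the cultures, against 533 and 478 RPKM in eWAT, a difference of -5.04 ± 0.22 (adjusted p = 3.2e-09). Gpx1, a glutathione peroxidase that removes hydrogen peroxide, had 22.7 and 17.04 RPKM in the cultures, against 675 and 559 RPKM in eWAT, a difference of -4.97 ± 0.27 (adjusted p = 1.7e-08). The culture values of Gpx1 rest on few reads, above all in library b, the shallow one. Trf, the plasma iron carrier transferrin, had 104 and 96.02 RPKM in the cultures, against 2543 and 2801 RPKM in eWAT, a difference of -4.74 ± 0.20 (adjusted p = 2.5e-09). The tissue libraries were the higher ones for all 3 genes, with no overlap. Cfd, the serum protease adipsin that adipocytes secrete in quantity, had an RPF level of 1116 and 1264 RPKM in the cultures, against 30605 and 27125 RPKM in eWAT. Its RNA was 1310 and 1382 RPKM in the cultures, against 19773 and 15864 RPKM in eWAT, and Eff was also lower in the cultures, at -0.88 ± 0.22 (adjusted p = 0.0066), a call lost with quantile scaling (adjusted p = 0.15). The other genes of the 12 lowest were Igfbp5 (-4.81 ± 0.31), the guidance factor Sema3c (-4.67 ± 0.36), the matrix proteoglycan podocan, Podn (-4.38 ± 0.48), Crip1 (-4.32 ± 0.24), complement C2 (-4.24 ± 0.34), the junction protein plakoglobin, Jup (-4.03 ± 0.28), the membrane linker ezrin, Ezr (-3.79 ± 0.44), and elastin, Eln (-3.76 ± 0.22).

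**Figure D3:**
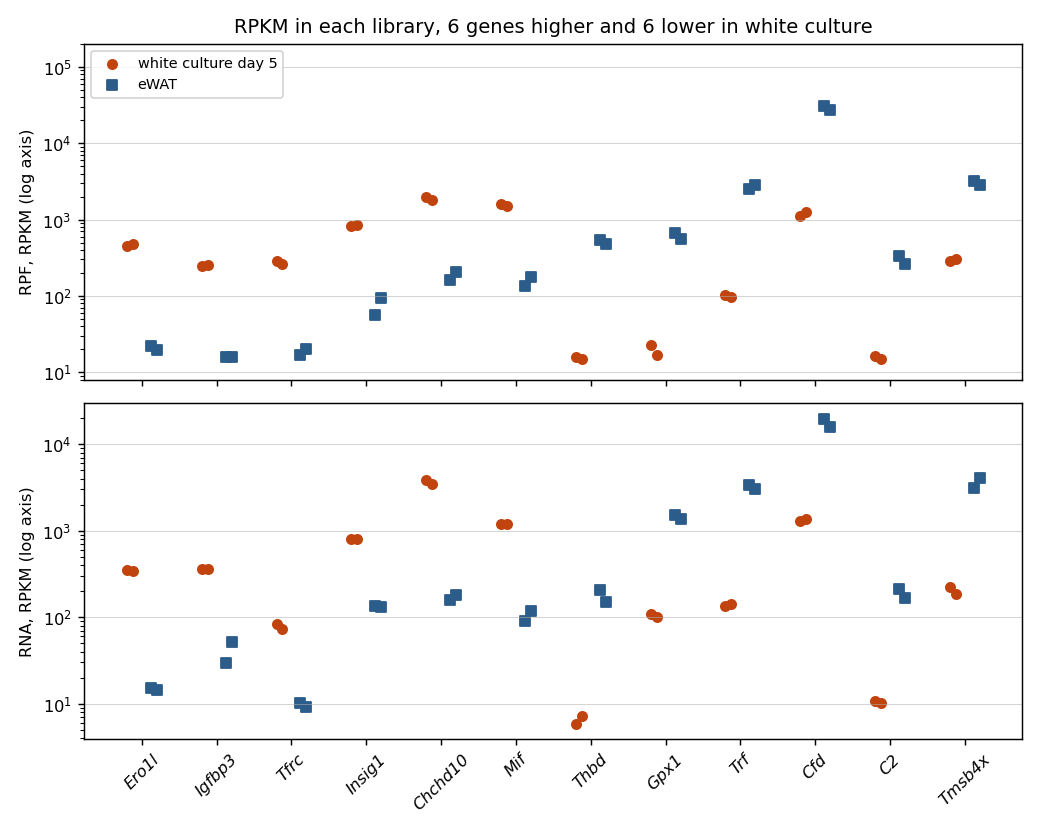
RPKM in each library (log axis, RPF above, RNA below) of 6 genes that were higher and 6 that were lower in white culture day 5 (circles, left of each pair) than in eWAT (squares). The genes shown have large differences, and culture and tissue libraries do not overlap for any of them.

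Genes of mitochondrial energy production were higher in the cultures as a group. Of 76 measured subunits of the respiratory chain and ATP synthase (OXPHOS), 68 were higher in RPF and 3 lower, with a median difference of 1.49, and 75 were higher in RNA, with a median of 1.8. Of 24 genes of the citric acid cycle and pyruvate entry, 21 were higher in RPF (median 1.64) and 24 in RNA (median 1.47), and none was lower. Of 44 proteins of the mitochondrial ribosome, 27 were higher in RPF (median 1.07) and 41 in RNA (median 0.92), and none was lower in either. These shares stand beside 24.4% of all genes higher in RPF and 31.1% in RNA.

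Within this group, Ndufa4, a subunit of cytochrome c oxidase, had an RPF level of 3128 and 3397 RPKM in the cultures, against 1399 and 1537 RPKM in eWAT, a difference of 1.15 ± 0.12 (adjusted p = 4.7e-06). Cycs, the electron carrier cytochrome c, had 3824 and 3422 RPKM in the cultures, against 553 and 641 RPKM in eWAT, a difference of 2.60 ± 0.11 (adjusted p = 3e-09). For both genes each culture library lay above each tissue library. Cs, the citrate synthase that opens the cycle, had an RPF level of 2328 and 2229 RPKM in the cultures, against 498 and 455 RPKM in eWAT, a difference of 2.26 ± 0.13 (adjusted p = 3.4e-08). Sucla2, a succinyl-CoA synthetase subunit, differed by 2.26 ± 0.13 and Dlat, a subunit of pyruvate dehydrogenase, by 2.35 ± 0.16. The 3 OXPHOS genes lower in RPF were all ATP synthase subunits, Atp5e (-0.53 ± 0.16), Atp5g3 (-0.67 ± 0.16) and Atp5j (-0.45 ± 0.15). Their RNA differences were 0.86 ± 0.11, 0.45 ± 0.11 and -0.04 ± 0.16, the first and second of which were called higher. With quantile scaling the RNA difference of Atp5e was 0.12 and not called (adjusted p = 0.31), and that of Atp5g3 turned to -0.46. The RPF calls of Atp5e and Atp5j were lost without either eWAT library. Eff of the OXPHOS list was called lower for 24 members and higher for 4, with a median of -0.35, beside 6.77% of all genes lower, 16.8% higher and a median of 0.18 over all genes. The Eff median of this list stayed negative under other scalings, at -0.58 with median-of-ratios and -0.16 with quantile scaling.

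Fatty acid oxidation genes mostly followed the mitochondrial ones, with Cpt1a as an exception. Of 28 measured genes, 23 were higher in RPF and 2 lower (median 1.36), and 23 were higher in RNA and 2 lower (median 0.99). Acadm, the medium-chain acyl-CoA dehydrogenase, had an RPF level of 1546 and 1436 RPKM in the cultures, against 445 and 526 RPKM in eWAT, a difference of 1.62 ± 0.15 (adjusted p = 2.5e-06). Hadha, a subunit of the trifunctional protein, had 1276 and 1290 RPKM in the cultures, against 238 and 265 RPKM in eWAT, a difference of 2.35 ± 0.10 (adjusted p = 2.5e-09). Culture and tissue libraries did not overlap for either gene. Cpt1a, the liver-type carnitine transferase that admits fatty acids to mitochondria, went the other way with 12.4 and 6.66 RPKM in the cultures, against 61.3 and 51.8 RPKM in eWAT, a difference of -2.63 ± 0.32 (adjusted p = 2.8e-05). Its RNA was lower as well, at -2.06 ± 0.12 (adjusted p = 7.7e-09), while Cpt2, which acts after it on the inner membrane, was higher in RPF by 1.61 ± 0.18 (adjusted p = 9e-06). The isoforms Cpt1b and Cpt1c did not have a value in all 24 libraries. The carnitine transferase step before Cpt2 was therefore seen through Cpt1a alone. The other member lower in RPF was Ivd, which acts on leucine breakdown products (-0.41 ± 0.14), a call lost without any one of the 4 RPF libraries.

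Glycolysis and sterol synthesis were higher too. Of 19 glycolysis genes, 17 were higher in RPF and 17 in RNA, with medians of 1.55 and 1.72, and none was lower in either. Gpi1, the glucose phosphate isomerase, had an RPF level of 1243 and 1298 RPKM in the cultures, against 147 and 167 RPKM in eWAT, a difference of 3.02 ± 0.13 (adjusted p = 2.5e-09). Slc2a1, the glucose transporter that does not depend on insulin, differed by 2.20 ± 0.28, and Slc2a4, the insulin-regulated transporter of fat and muscle, by 1.91 ± 0.20. Pgk1, a glycolytic kinase (2.73 ± 0.10), and the lactate dehydrogenase subunit Ldhb (2.23 ± 0.19) were among the larger differences. Of 21 genes of cholesterol synthesis and uptake, 17 were higher in RPF (median 1.38) and none lower, and 18 were higher and 1 lower in RNA (median 1.21). Cyp51, a sterol demethylase, had 297 and 285 RPKM in the cultures, against 37.3 and 49.4 RPKM in eWAT, a difference of 2.76 ± 0.17 (adjusted p = 4.7e-08). Squalene synthase Fdft1 (2.53 ± 0.22) and squalene epoxidase Sqle (2.00 ± 0.25) were called higher as well.

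Fat synthesis and storage genes were mostly higher. Of 23 genes of fatty acid synthesis and desaturation, 15 were higher in RPF and 1 lower (median 0.65), and 19 were higher and none lower in RNA (median 0.65). The synthase Fasn itself had an RPF level of 2248 and 2182 RPKM in the cultures, against 1862 and 2845 RPKM in eWAT, a difference of -0.06 ± 0.16 (adjusted p = 0.81), with overlapping groups, and an RNA difference of 0.18 ± 0.10 (adjusted p = 0.14), which was -0.39 and called lower with quantile scaling (adjusted p = 0.0056). Scd1, the main desaturase of fat, differed by 0.37 ± 0.10 (adjusted p = 0.011), a call lost with median-of-ratios scaling (adjusted p = 0.13), without a variance trend (adjusted p = 0.12), with the culture duplicates averaged, without either culture library and without eWAT library 1, where the difference was 0.20 (adjusted p = 0.12). Fads1 differed by 2.18 ± 0.25 (adjusted p = 1.3e-05). Of 16 genes of triglyceride synthesis and the lipid droplet, 9 were higher and 2 lower in RPF (median 0.79), and 12 were higher and 3 lower in RNA (median 0.71). Lpin1, a phosphatidate phosphatase, had 381 and 301 RPKM in the cultures, against 108 and 115 RPKM in eWAT, a difference of 1.60 ± 0.23 (adjusted p = 9.6e-05). Plin4, a droplet coat protein, had 265 and 305 RPKM in the cultures, against 1125 and 1065 RPKM in eWAT, a difference of -1.94 ± 0.18 (adjusted p = 2.3e-06). The culture libraries were thus the higher ones for Lpin1 and the lower ones for Plin4. Of 20 genes that break down branched-chain amino acids, a fuel of adipocytes, 13 were higher and 2 lower in RPF (median 0.77).

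The adipocyte marker list did not move one way. Of its 24 measured members, 9 were higher and 8 lower in RPF, with a median of 0.0, and 11 were higher and 10 lower in RNA, with a median of 0.0, a value whose sign turns with scaling. Fabp4, the fatty acid carrier of adipocytes, had an RPF level of 42340 and 40986 RPKM in the cultures, against 42436 and 43706 RPKM in eWAT, a difference of -0.05 ± 0.08 (adjusted p = 0.66). Pparg had 267 and 269 RPKM in the cultures, against 179 and 192 RPKM in eWAT, a difference of 0.53 ± 0.17 (adjusted p = 0.028) that was not called under other scalings (adjusted p = 0.12 with median-of-ratios, 0.18 with quantile). Adipoq, which encodes adiponectin, had 2759 and 2504 RPKM in the cultures, against 5901 and 6606 RPKM in eWAT, a difference of -1.25 ± 0.17 (adjusted p = 5.6e-05). The libraries of culture and tissue lay apart for Adipoq, in which eWAT was the higher. Acsl1, which activates fatty acids, was higher by 1.45 ± 0.13 (adjusted p = 1.3e-06), and Gpd1, which makes glycerol phosphate for triglyceride, by 1.55 ± 0.23 (adjusted p = 0.00012). Lower members were Car3, the carbonic anhydrase abundant in fat, at -2.25 ± 0.09 (adjusted p = 2.4e-09), the hormone-sensitive lipase Lipe, at -0.88 ± 0.22 (adjusted p = 0.0059), and the fatty acid transporter Cd36, at -0.89 ± 0.23 (adjusted p = 0.0084). The last of these calls, and that of Lipe, were lost without eWAT library 2 (adjusted p = 0.067 and 0.057). Lpl, the lipase that frees fatty acids from lipoproteins, gave 0.06 ± 0.08 (adjusted p = 0.59) and Plin1 gave -0.41 ± 0.28 (adjusted p = 0.27).

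Proteins that adipocytes secrete were lower in the cultures. Of 11 measured members of that list, 8 were lower in RPF and none was higher (median -0.97), and 8 were lower and 1 higher in RNA (median -0.68). Beside Cfd and Adipoq, which belong to both lists, Hp, the hemoglobin-binding protein haptoglobin, had an RPF level of 1045 and 1057 RPKM in the cultures, against 3869 and 3779 RPKM in eWAT, a difference of -1.86 ± 0.15 (adjusted p = 6.1e-07). Angptl4, an inhibitor of Lpl, differed by -0.97 ± 0.18 (adjusted p = 0.0011), and apolipoprotein E, Apoe, by -0.74 ± 0.10 (adjusted p = 4.1e-05). Leptin had no value in all libraries and was not analysed here.

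The complement and acute phase list gave 10 lower and 1 higher of 12 measured members in RPF (median -1.81), and 10 lower and none higher in RNA (median -1.67). It shares Cfd, Hp, C3, C4b and Cp with the list of secreted proteins, so the counts of these lists are not separate results. C3, the central component of complement, had an RPF level of 222 and 229 RPKM in the cultures, against 566 and 430.4 RPKM in eWAT, a difference of -1.13 ± 0.26 (adjusted p = 0.004). Its RNA was 281 and 289.6 RPKM in the cultures, against 298 and 222 RPKM in eWAT, a difference of 0.15 ± 0.12 (adjusted p = 0.29), and its Eff was lower in the cultures, at -1.28 ± 0.31 (adjusted p = 0.0055). C3 therefore separated the groups in footprints and Eff but was not called in mRNA. C4b, whose reads cannot be told from those of its near copy C4a in all places, differed by -2.76 ± 0.22. The higher member was F3, the tissue factor that starts clotting, at 0.82 ± 0.16 (adjusted p = 0.0011).

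Genes of antigen presentation were also lower, 5 of 7 measured members in RPF (median -1.52) and 7 of 7 in RNA (median -1.36). B2m, the shared light chain of class I molecules, had an RPF level of 1660 and 1737 RPKM in the cultures, against 7116 and 8754 RPKM in eWAT, a difference of -2.22 ± 0.10 (adjusted p = 3.3e-09). The class I chains H2-D1 (-2.61 ± 0.18) and H2-K1 (-1.89 ± 0.14) are near copies of each other and their separate values are uncertain. Of 11 interferon response genes, 7 were lower in RPF and none was higher (median -0.83), with Bst2, a membrane protein that tethers viruses, at -1.54 ± 0.20.

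Markers of other cell types that a fat pad holds were lower in the cultures alongside these groups, and their part in the differences was not tested. Of 8 measured macrophage markers, 6 were lower and 1 higher in RPF, with a summed level of 816.8 and 791.5 RPKM in the cultures, against 3265 and 2630 RPKM in eWAT. In RNA, 4 of them were lower and 2 higher, beside 37.5% and 31.1% of all genes. Lyz2, the macrophage lysozyme, had an RPF level of 240.5 and 231 RPKM in the cultures, against 1874 and 1431 RPKM in eWAT, and part of its reads may belong to its near copy Lyz1. The member higher in RPF was Gpnmb. All 4 measured mesothelial markers were lower, with a sum of 151.1 and 191.4 RPKM in the cultures, against 2704 and 2276 RPKM in eWAT. Of 9 smooth muscle and pericyte markers, 7 were lower, with a sum of 280.8 and 265.9 RPKM in the cultures, against 746.8 and 649.8 RPKM in eWAT. White preadipocytes before induction carried these lists too. Their RPF sums were 2737 and 2600 RPKM for macrophage, 564.9 and 586.7 RPKM for mesothelial and 4688.4 and 4678.5 RPKM for smooth muscle markers. A lower value in these lists therefore need not mean a cell type missing from the cultures, and this was not tested. Of 5 endothelial markers, 4 were lower and 1, Fabp5, was higher. The sum of that list was 8568 and 9416 RPKM in the cultures, against 6185 and 6766 RPKM in eWAT, and rested on Fabp5 and Cav1, which adipocytes also express. Defining markers such as Csf1r and Cd68 of macrophages, Pecam1 of endothelium and Msln and Wt1 of mesothelium had no value in all 24 libraries and were not analysed, and no lymphocyte, skeletal muscle, erythroid or epididymis marker was measured.

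Actin and the proteins that organise it were lower in the cultures with few exceptions. Of 39 measured genes, 33 were lower in RPF and 1 higher (median -1.27), and 35 were lower and 2 higher in RNA (median -0.93). Actb, the main cytoplasmic actin, had an RPF level of 1412 and 1367 RPKM in the cultures, against 4333 and 4560 RPKM in eWAT, a difference of -1.68 ± 0.09 (adjusted p = 1.2e-08), with possible exchange of reads with other actins. Tmsb4x, a thymosin that holds actin monomers and has near copies, had 288 and 308 RPKM in the cultures, against 3249 and 2804 RPKM in eWAT, a difference of -3.34 ± 0.18 (adjusted p = 1.7e-08). The tissue libraries exceeded both culture libraries for Actb and for Tmsb4x. The member higher in RPF was Coro1b, a coronin (0.60 ± 0.16), which was not called with quantile scaling or without eWAT library 2. The direction of the actin list was the same under all 3 scalings, with medians from -1.27 to -1.52. Smooth muscle actin Acta2, which marks contractile cells, was lower, at -2.23 ± 0.19 (adjusted p = 1.1e-06).

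Caveolae, the membrane pits that cover much of an adipocyte's surface, had 5 of 6 measured genes lower in RPF (median -1.43) and 6 of 6 in RNA (median -1.49). Cav1, their coat protein, had an RPF level of 2129 and 2259 RPKM in the cultures, against 4986 and 5263 RPKM in eWAT, a difference of -1.22 ± 0.10 (adjusted p = 5.9e-07). The cavins Ptrf (-1.98 ± 0.13) and Prkcdbp (-3.20 ± 0.31) and the neck protein Ehd2 (-1.58 ± 0.14) were lower as well.

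Matrix genes split rather than shifted. Of 31 fibroblast and preadipocyte markers, 10 were higher and 12 lower in RPF (median -0.04), and 15 were higher and 13 lower in RNA (median 0.01). The RPF median was 0.05 without eWAT library 1, and the RNA median was -0.01 with quantile scaling and -0.05 without eWAT library 2. Postn, the matrix protein periostin, had an RPF level of 1491 and 1468 RPKM in the cultures, against 196 and 174 RPKM in eWAT, a difference of 3.00 ± 0.12 (adjusted p = 1.8e-09). Pdgfra, the receptor that marks adipocyte progenitors, had 289 and 313 RPKM in the cultures, against 73.5 and 57.05 RPKM in eWAT, a difference of 2.22 ± 0.18 (adjusted p = 5.5e-07). Sparc, a collagen-binding protein, had 3004 and 2937 RPKM in the cultures, against 7333 and 7433 RPKM in eWAT, a difference of -1.31 ± 0.08 (adjusted p = 4e-08). So the cultures were higher in Postn and Pdgfra and the tissue in Sparc, and fibrillin 1, Fbn1, was also lower in the cultures (-1.95 ± 0.14). Col1a1, the main chain of type I collagen, was higher in RPF by 0.50 ± 0.09 and in RNA by 1.72 ± 0.13, with Eff lower, at -1.22 ± 0.17 (adjusted p = 9.5e-05), but its RPF difference was -0.02 with quantile scaling. In Eff the list had 12 lower and 3 higher members (median -0.44). Of 23 matrix proteases, inhibitors and collagen-processing enzymes, 12 were higher and 5 lower in RPF (median 0.61), among them the gelatinase Mmp2 (2.05 ± 0.16) and the prolyl hydroxylase P4ha1 (2.42 ± 0.14). Timp3, an inhibitor of such proteases, was among the lowest genes in RNA (-4.46 ± 0.12).

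Genes known to respond to the hormones of the induction medium were looked at as a list. Of 15 measured glucocorticoid targets, 8 were higher and 3 lower in RPF (median 1.05), and 10 were higher and 5 lower in RNA (median 0.63). Fkbp5, a chaperone partner of the glucocorticoid receptor, had an RPF level of 170.2 and 147 RPKM in the cultures, against 67.1 and 51.4 RPKM in eWAT, a difference of 1.43 ± 0.23 (adjusted p = 0.00034). Tsc22d3 (1.05 ± 0.21) and the clock gene Per1 (1.35 ± 0.30) were higher, and the receptor itself, Nr3c1, was lower (-0.62 ± 0.19), although not called without either eWAT library. Of 27 genes of insulin and IGF signalling, 8 were higher and 6 lower in RPF (median 0.22). Over all genes 24.4% were higher and 13.7% lower in RPF, with a median of 0.17. Igf1, the growth factor, had 127 and 119 RPKM in the cultures, against 548 and 462 RPKM in eWAT, a difference of -2.04 ± 0.19 (adjusted p = 2.6e-06), and its binding protein Igfbp4 differed by -2.04 ± 0.25. Among 6 measured clock genes, 5 were higher and 1 lower. The lower gene was Nr1d1, a repressor of the clock, with 7.43 and 13.95 RPKM in the cultures, against 63.9 and 80.02 RPKM in eWAT, a difference of -2.81 ± 0.35 (adjusted p = 3e-05), and Bhlhe40 was higher by 2.13 ± 0.18. The hour of collection is not given in the sources used here.

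Of 20 genes of the Atf4 response and serine synthesis, which cells switch on when amino acids run short, 13 were higher and 3 lower in RPF (median 0.79). Pck2, a mitochondrial carboxykinase, had 84.05 and 86.2 RPKM in the cultures, against 16.02 and 15.2 RPKM in eWAT, a difference of 2.45 ± 0.18 (adjusted p = 2.2e-07). Ddit4, an inhibitor of mTORC1 that glucocorticoids also induce, had 185 and 198 RPKM in the cultures, against 25.2 and 28.1 RPKM in eWAT, a difference of 2.85 ± 0.28 (adjusted p = 4.1e-06), and its Eff was higher by 1.85 ± 0.39 (adjusted p = 0.0024). Phgdh, the first enzyme of serine synthesis, was a lower member (-1.43 ± 0.14).

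Many genes of the translation apparatus were higher in the cultures by small amounts. Of 48 proteins of the large cytosolic ribosomal subunit, 28 were higher in RPF (median 0.52) and 47 in RNA (median 0.77), and none was lower. Of 32 of the small subunit, 18 were higher and 1 lower in RPF (median 0.47), and 32 were higher in RNA (median 0.84). These genes have many near-identical copies in the genome, which makes single values uncertain. With quantile scaling, 20 large-subunit genes were higher and 7 lower in RNA (median 0.14), and 12 small-subunit genes were higher and 6 lower (median 0.10). Their Eff medians, -0.30 and -0.33, turned to 0.22 and 0.24 under quantile scaling, so no direction of Eff is given for them. Of 38 translation factors, 21 were higher in RPF and none was lower (median 0.45), and 22 were higher and 8 lower in RNA (median 0.28). With quantile scaling, 14 were higher and 12 lower in RNA (median 0.01).

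Eff was higher in the cultures for 847 genes and lower for 341, a balance that median-of-ratios scaling turned to 494 higher and 622 lower. Without the second RNA library of white culture the counts were 458 and 195, without the second RNA library of eWAT 547 genes were higher, and with same-numbered RPF and RNA libraries as a replicate block, 691 were higher and 224 lower. Of the 847 genes, 548 were lower in RNA and 386 higher in RPF, beside 37.5% and 24.4% of all genes. Of the 341 genes, 207 were higher in RNA and 156 lower in RPF, beside 31.1% and 13.7% of all genes. Eff is computed from RPF and RNA, so genes picked by Eff lean these ways by construction. The 8 highest Eff differences, between 2.58 and 3.12, belonged to Leng8, Dock6, Ccnl2, Clk1, Trim24, Zc3h7a, Mndal and Prpf4b. Ccnl2, Clk1 and Prpf4b encode a cyclin and kinases that act on splicing factors. Clk1 RPF stood at 28.4 and 40.8 RPKM in the cultures, against 28.7 and 21.9 RPKM in eWAT, a difference of 0.44 ± 0.34 (adjusted p = 0.34). Clk1 RNA stood at 30.7 and 22.1 RPKM in the cultures, against 134 and 137 RPKM in eWAT, a difference of -2.37 ± 0.17 (adjusted p = 9e-08), so the groups overlapped in footprints and not in mRNA. RNA was lower in the cultures for all 8 genes, a direction that choosing by high Eff favours. The 8 lowest, from -2.97 to -2.10, were Lpp, Slc5a3, Flnc, LOC434624, Sptbn1, Abca2, Plec and Zfp871. Flnc, Plec and Sptbn1 encode long proteins of the cytoskeleton, and Lpp an adhesion protein. Lpp RNA was 9.703 and 8.41 RPKM in the cultures, against 1.095 and 0.809 RPKM in eWAT, a difference of 3.26 ± 0.28 (adjusted p = 3.7e-07). Lpp RPF was 61.6 and 68.6 RPKM in the cultures, against 46.6 and 60.8 RPKM in eWAT, a difference of 0.29 ± 0.20 (adjusted p = 0.27). The eWAT RNA values of Lpp are low and rest on few reads, which limits its RNA and Eff differences.

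Footprints and mRNA differed in the ferritin genes. Of 33 genes of iron handling, redox and detoxification, 13 were higher and 9 lower in RPF (median 0.20), 16 were higher and 11 lower in RNA (median 0.23), and 7 were higher and 10 lower in Eff (median -0.18), and all 3 medians changed sign with quantile scaling. Cells sense iron through proteins that bind a hairpin in mRNA, the iron-responsive element (IRE). When iron is short, binding in the 5′ untranslated region blocks translation, as in ferritin mRNA, and binding in the 3′ untranslated region protects the mRNA from decay, as in Tfrc mRNA. The annotated untranslated regions of the measured genes were searched for a loop of CAGTG followed by A, C or T, closed by 5 base pairs with G-T pairs allowed and preceded by an unpaired C. Only the transcribed strand was searched. The motif was found in the 5′ region of 8 of 4700 genes (0.17%) and in the 3′ region of 23 of 4821 genes (0.477%). Tfrc, with 4 copies, was the only gene with more than 1 in its 3′ region. Windows of 30 bases are shown for 3 genes whose Eff or RNA is discussed next, read from the GENCODE M21 annotation on the GRCm38 assembly, with the loop in capitals.
Fth1, 5′ untranslated region, exon, chr19:9982732-9982761, plus strand: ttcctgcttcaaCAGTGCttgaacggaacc
Ftl1, 5′ untranslated region, exon, chr7:45459778-45459807, minus strand: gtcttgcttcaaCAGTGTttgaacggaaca
Tfrc, 3′ untranslated region, exon, chr16:32631219-32631248, plus strand: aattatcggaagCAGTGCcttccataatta
Tfrc, 3′ untranslated region, exon, chr16:32631710-32631739, plus strand: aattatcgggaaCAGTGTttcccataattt

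Fth1, the ferritin heavy chain, had an RPF level of 1868 and 1956 RPKM in the cultures, against 2671 and 2410 RPKM in eWAT. Its RNA level was 5150 and 5482 RPKM in the cultures, against 3336 and 3587 RPKM in eWAT. Its RPF difference was -0.41 ± 0.09 (adjusted p = 0.0022) and its RNA difference 0.62 ± 0.09 (adjusted p = 4.3e-05), of opposite sign, and Eff was lower, at -1.03 ± 0.12 (adjusted p = 1.5e-05). The RPF call of Fth1 was lost without a variance trend (adjusted p = 0.06). Ftl1, the light chain, had an RPF level of 210.5 and 318 RPKM in the cultures, against 798 and 835 RPKM in eWAT. Its RNA level was 2229 and 2111 RPKM in the cultures, against 2320 and 2315 RPKM in eWAT. RPF was lower, at -1.66 ± 0.18 (adjusted p = 9e-06), RNA differed by -0.10 ± 0.09 (adjusted p = 0.34) and Eff by -1.56 ± 0.21 (adjusted p = 4.9e-05). Ferritins have processed copies in the genome, and their values are uncertain to that extent.

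Tfrc, with hairpins in the 3′ region, had RNA at 84.2 and 72.1 RPKM in the cultures, against 10.2 and 9.04 RPKM in eWAT, a difference of 3.02 ± 0.22 (adjusted p = 8.5e-08), and Eff higher by 0.87 ± 0.31 (adjusted p = 0.047). The Eff call of Tfrc was lost under median-of-ratios scaling (adjusted p = 0.13), with the replicate block (adjusted p = 0.1) and without any single one of its 8 libraries, whereas the Eff calls of Fth1 and Ftl1 held under every alternative tried. Culture and tissue libraries of these 3 genes did not overlap in RPF or in RNA, although the RNA difference of Ftl1 was small and not called (-0.10, adjusted p = 0.34). Not all genes with the motif in the 5′ region had lower Eff. It was higher in Eif2s1 (0.84 ± 0.21) and Vti1b (0.79 ± 0.25), both no longer called with quantile scaling. The call of Vti1b was also lost with median-of-ratios scaling (adjusted p = 0.12), with the replicate block (adjusted p = 0.071) and without 6 of the 8 libraries in turn. Ecd (0.54), Nfib (-0.37) and Rnf44 (0.35), which also have the motif in the 5′ region, were not called in Eff (adjusted p = 0.22, 0.46 and 0.62). A match of letters is a description and does not show that the element is used. Trf, which delivers iron to Tfrc, was among the lowest genes above, and the iron content of medium and tissue is not given in the sources used here.

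**Figure D4:**
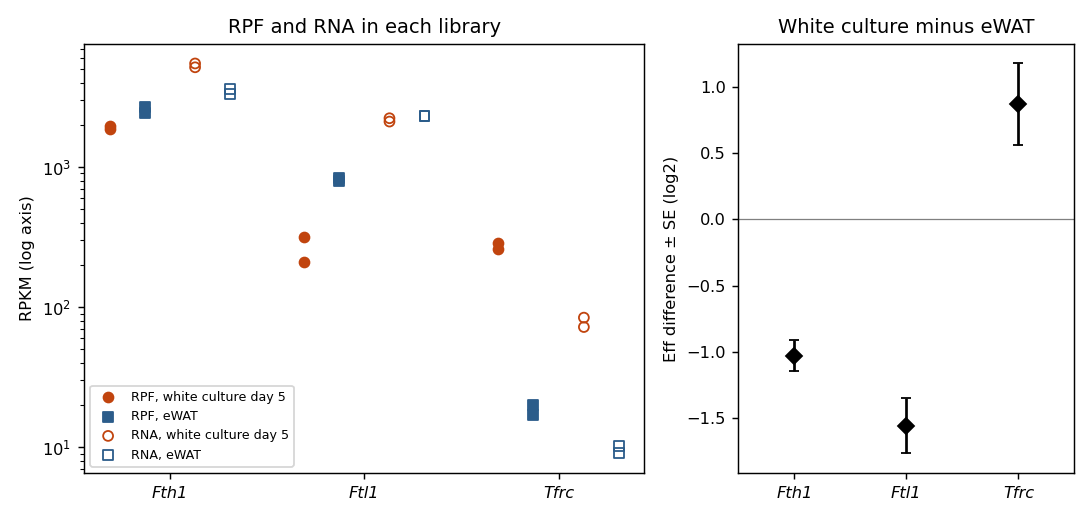
Left, RPF and RNA in each library of white culture day 5 and eWAT for iron genes (RPKM, log axis). Right, their Eff difference with SE (log2, white culture minus eWAT), which lay below 0 for Fth1 and Ftl1 and above 0 for Tfrc.

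The same comparison in the brown lineage, brown cultures at day 5 minus BAT, uses other libraries and was set beside the white pair. In the brown pair, 1809 genes (35.9%) were higher and 423 (8.4%) lower in RPF, with a median of 0.45, and 2562 (50.9%) were higher and 640 (12.7%) lower in RNA, 63.6% in all, with a median of 0.32. The test of the difference between the lineages called 375 genes (7.45%) higher and 701 (13.9%) lower in RPF, higher meaning a larger culture minus tissue difference in the white pair than in the brown pair, with a median of -0.31. In RNA it called 729 genes (14.5%) higher and 2583 (51.3%) lower (median -0.45). With median-of-ratios scaling these counts were 551 and 327 in RPF and 1295 and 1529 in RNA. The 701 lower genes in RPF became 422 without the first BAT library, and 463 and 459 without brown culture library a or b.

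OXPHOS genes made a large block of this contrast. In the white pair their RPF median was 1.49 and in the brown pair -0.11, with 13 higher and 21 lower there, and 66 of 76 were called higher and 2 lower in the contrast. For the citric acid cycle the RPF medians were 1.64 in the white pair and -0.33 in the brown pair, and 22 of 24 were called higher in the contrast. For fatty acid oxidation they were 1.36 and -0.34, and 21 of 28 were called higher and 1 lower. Hadhb, a subunit of the trifunctional protein, had RPF of 1916 and 1883 RPKM in white cultures, against 338 and 434 RPKM in eWAT. It had 2747 and 2603 RPKM in brown cultures, against 6203 and 5722 RPKM in BAT, and the contrast was 3.47 ± 0.24 (adjusted p = 9.5e-07). White and brown cultures thus lay nearer to each other than eWAT and BAT did, for this gene.

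**Figure D5:**
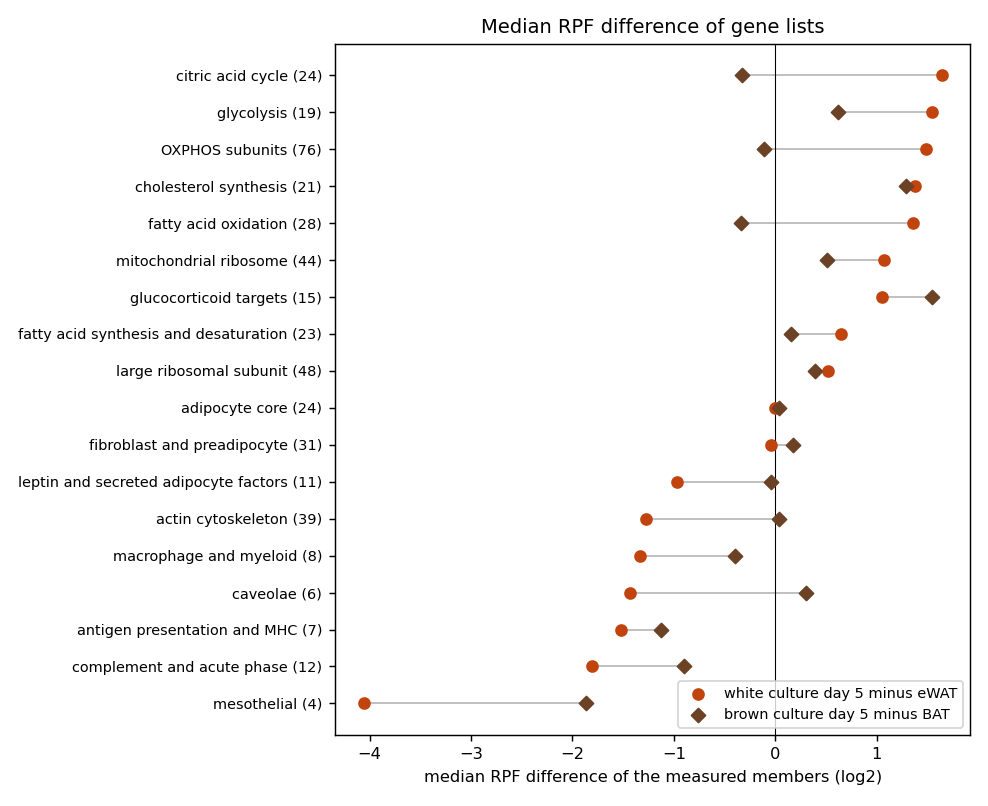
Median RPF difference (log2) of each gene list in white culture day 5 minus eWAT (circles) and in brown culture day 5 minus BAT (diamonds), with the number of measured members in brackets. The circles of the citric acid cycle, OXPHOS and fatty acid oxidation lie to the right of 0 and their diamonds to the left.

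Cholesterol synthesis was higher in both, with RPF medians of 1.38 in the white pair and 1.29 in the brown pair, and 7 of 21 genes were called higher and 2 lower in the contrast. Glucocorticoid targets had medians of 1.05 in the white pair and 1.55 in the brown pair, with 2 called higher and 6 lower in the contrast. Actin genes had a median of -1.27 in the white pair and 0.04 in the brown pair, where 13 were higher and 9 lower, and 27 of 39 were called lower in the contrast. For caveolae the medians were -1.43 and 0.30, and 6 of 6 were called lower in the contrast. Complement and acute phase genes had medians of -1.81 in the white pair and -0.90 in the brown pair, with 5 of 12 called lower and 1 higher in the contrast.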

How the data were processed

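Both assays were deposited by the authors as RPKM per gene, computed from reads mapped without mismatches to the most abundant isoform, 1 site per read, over coding sequence. The submitters' processing notes name cutadapt 1.8.3, Bowtie 1.0.0 and TopHat2 2.0.9. The Eff columns of the deposited table are the ratio of RPF to RNA values by the authors and were recomputed. RNA was polyA selected. The strand of the RNA library is not given in the sources used here.

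log2 RPKM, without a pseudocount, was fitted to group means with limma 3.58.1 (R 4.3.3), with a trend in the prior variance and Benjamini-Hochberg adjustment over 5035 genes. The fit for RPF and RNA used 12 libraries each, and Eff was the term for assay by group in a joint fit of all 24. Gene lists, members and the rule for named genes were chosen with earlier results of these data known. The rule took the 12 highest and 12 lowest genes in RPF, the 8 at each end in RNA and Eff, the first and the most changed members of each list, and the 6 at each end of the contrast with the brown lineage. Atp5g3, Atp5j, Coro1b, Fbn1, Ivd, Nr3c1, Phgdh and Vti1b and the selenoproteins outside the rule were chosen after their values were seen. A few genes picked by the rule are left out here.

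Reads were recovered from the RPKM steps. Between 98.6% and 98.9% of values gave whole numbers within 0.05, and 4769 genes were whole in all libraries. These reads were used for depth, duplicate checks and a voom fit. No per-sample column was left unused. Alternatives were other scalings, a pseudocount of 1 RPKM, minima of 5 RPKM and 10 reads, the libraries of the compared groups alone, no variance trend, voom, a replicate block, a 2-fold minimum, leaving out each library, and averaged culture duplicates. The script was tested on simulated data. The deviations of same-numbered culture and tissue libraries correlated at 0.008 in RPF and 0.25 in RNA. With 2 numbers and no label that ties culture to tissue, the number was not taken as a pairing between them. The eWAT pools were divided between the assays, so same-numbered RPF and RNA libraries of eWAT may share a pool, which their numbers alone do not establish. Their deviations correlated at 0.006.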

Additional observations from a re-analysis of the deposited data

Results flagged for a closer look

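The culture minus tissue difference was larger or smaller in the white lineage than in the brown lineage for many genes by the limma test of that contrast. In RPF, 375 genes were higher and 701 lower, and in RNA 729 were higher and 2583 lower.

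Among the genes with the highest RPF contrast were Acsl5 (4.01), which activates fatty acids, Elovl6 (3.86), a fatty acid elongase, Hadhb (3.47), a subunit of the trifunctional protein, Chchd10 (3.23) and Tkt (3.14), a transketolase. Among the lowest were Thbs1 (-4.64), a matrix glycoprotein, Lhfpl2 (-3.77), Prss23 (-3.64), Cited2 (-3.56) and Tubb2a (-3.53), a tubulin with near copies. In Thbs1 the RPF level was 88.7 and 102 RPKM in white cultures, against 119 and 111 RPKM in eWAT, and 175 and 199 RPKM in brown cultures, against 5.396 and 15.1 RPKM in BAT.

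In RNA the highest contrasts included Chchd10 (3.75), Acadvl (3.37), Acsl5 (3.28), Elovl6 (3.25) and Letmd1 (3.20). The lowest included Thbs1 (-5.52), Agt (-4.74), Anxa1 (-4.13), Lbp (-3.95) and Sema3c (-3.83).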

How the results depend on the processing

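Counts of called genes kept within 1.5 times the values reported in most alternatives. The counts outside this range are given below, beside some that stayed within it. Those within it include 529 and 551 in the RPF contrast and all counts with averaged culture duplicates. Requiring a 2-fold difference gave 670 higher and 421 lower genes in RPF, 498 and 567 in RNA, 531 and 149 in Eff, 529 lower in the RPF contrast with the brown lineage, and 339 and 1166 in the RNA contrast. Median-of-ratios scaling gave 494 higher and 622 lower in Eff, 551 higher and 327 lower in the RPF contrast and 1295 and 1529 in the RNA contrast. Quantile scaling gave 458 higher in Eff, 378 lower in the RPF contrast and 1331 and 1350 in the RNA contrast. The voom fit gave 1092 lower in the RPF contrast over 4769 genes. Averaging the culture RPF duplicates, an alternative chosen after seeing the data, gave 1045 and 643 in RPF and 330 and 501 in its contrast.

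With the replicate number as a block, 1213 genes were higher and 686 lower in RPF, 1550 and 1881 in RNA, and 691 and 224 in Eff. Of these counts, only the 224 lower genes in Eff fell outside that range.

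Without 1 of the libraries in turn, 901 to 978 genes were higher and 503 to 560 lower in RPF, 1381 to 1452 and 1606 to 1715 in RNA, 458 to 795 and 195 to 349 in Eff, 293 to 336 and 422 to 593 in the RPF contrast, and 654 to 809 and 2324 to 2722 in the RNA contrast. The lowest Eff counts, 458 and 195, came without the RNA library 2 of white culture, and 547 higher genes without the RNA library 2 of eWAT. In the RPF contrast, 422 lower genes came without BAT library 1, and 463 and 459 without brown culture libraries a and b. Of 124 RPF, 130 RNA and 61 Eff calls of the 146 genes in the text, 109, 118 and 37 held under every alternative run. Quantile scaling turned the sign of Atp5g3 RNA (-0.46), which was called in both fits. It also turned Col1a1 RPF (-0.02), Fabp4 RNA (0.00) and Gpx4 RNA (-0.11), whose calls were lost. Cav1 Eff (0.48), Fasn RNA (-0.39) and Gpx4 RPF (-0.40) turned sign too and were called only with quantile scaling. The cause was not tested. Shallow RPF libraries limit the RPF and Eff calls of genes with few reads. Low RNA values, such as those of Lpp in eWAT, limit RNA and Eff calls.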

Other observations

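Selenoproteins, which carry selenocysteine, did not move as a group. Of 12 measured ones, which were chosen after their values were seen and are given without a test of the group, Gpx1, Sepw1, Sepp1 and Msrb1 were lower in RPF. Their RPF differences were -4.97 ± 0.27, -3.55 ± 0.19, -1.65 ± 0.18 and -1.60 ± 0.21. The culture RPF values of Gpx1 rest on few reads, which limits its RPF and Eff differences. Selk was higher (1.29 ± 0.16), and the other 7 were not called in RPF, among them Gpx4 at 0.20 ± 0.12 (adjusted p = 0.2), which was called lower with quantile scaling (-0.40, adjusted p = 0.03). Eff was lower for Gpx1 (-1.17 ± 0.31), Gpx3 (-1.24 ± 0.18), Sepw1 (-0.78 ± 0.22) and Msrb1 (-1.51 ± 0.24). It was higher for Selk (1.31 ± 0.21), Txnrd1 (1.15 ± 0.20) and Sep15 (0.93 ± 0.21), and for Gpx4, Sephs2, Sepn1, Vimp and Sepp1 it was not called. Msrb1, a methionine sulfoxide reductase, had an RPF level of 96.2 and 139.9 RPKM in the cultures, against 372 and 332 RPKM in eWAT. Its RNA level was 302 and 335 RPKM in the cultures, against 327 and 348 RPKM in eWAT, so that footprints separated the groups and mRNA overlapped. The Eff call of Sepw1 was lost with quantile scaling (adjusted p = 0.12), the voom fit (adjusted p = 0.068) and the replicate block (adjusted p = 0.067). Without RPF eWAT library 1 its Eff difference was -0.56.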
